A study of Mus musculus with 217 samples.

Results

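The lung endothelial translatome 48 hr after lipopolysaccharide (LPS) was compared with the lung endothelium of 0 hr mice. The members were the libraries labelled lung 48 hr and lung 0 hr. Sequencing runs of the same library were summed, and a library was kept if at least 3% of its reads fell on genes. This left 10 libraries, 4 at 0 hr and 6 at 48 hr, of 98 libraries in the whole series. A 0 hr library and a 48 hr library, both replicate 5, fell under 3% and were left out.

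All mice were adult C57BL/6J animals of genotype Cdh5CreERT2/+; Rpl22HA/+. In these mice tamoxifen turns on, in cells that express Cdh5 (VE-cadherin), a ribosomal protein that carries an HA tag, and antibody against the tag then pulls down ribosomes with the mRNA bound to them (RiboTag). Every mouse, controls included, had received 5 mg tamoxifen by gavage 4 times at 4 to 6 weeks of age. The 48 hr mice had received 10 mg/kg LPS intraperitoneally, while the 0 hr mice are labelled control and, by the study's methods, were injected with PBS. Whether each library came from its own animal is not given for the lung libraries by the labels.

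LPS is the outer membrane lipid of Gram-negative bacteria. It is sensed by TLR4 with its partners MD-2 and CD14, and the signal passes through NF-κB to cytokines, chemokines, adhesion molecules and acute-phase proteins. The lung capillary bed is built of large aerocytes, which line the gas exchange surface, and of general capillary cells, and it is the bed in which circulating neutrophils are held during sepsis.

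Read totals on genes ranged from 3666859 to 43417945 in the 0 hr libraries and from 6710885 to 19468463 in the 48 hr libraries. The share of reads on genes was 18.8 to 56.2% at 0 hr and 9.27 to 44.4% at 48 hr. In 48 hr replicates 1 and 2, with the lowest shares (9.27% and 13.0%), Gm42418, a locus that overlaps ribosomal RNA repeats, took 57.6% and 24.5% of the counts, against 2.04 to 4.71% in the other 48 hr libraries. The file names fall into 4 naming patterns, called library series here. Library series 1 and 2 each hold 2 libraries of either group, and the remaining 48 hr libraries (replicates 6 and 7) belong to library series 4, which has no lung 0 hr library. Within library series 1, the file names of 0 hr replicate 4 and 48 hr replicate 4 carry a suffix a. The levels of these 2 libraries correlated at r = 0.939. With the other libraries of their own groups r was 0.819 to 0.872 at 0 hr and 0.733 to 0.855 at 48 hr. The labels do not explain the suffix. Levels are given as log2 CPM (counts per 1000000 of a library total adjusted by TMM scaling, with a prior count of 2). A level of -3.13 stands for no counts. A difference is given as the log2 fold change of 48 hr over 0 hr with its standard error (SE).

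The libraries carried endothelial transcripts at both times. Pecam1, the endothelial adhesion molecule CD31, stood at 9.50, 10.04, 10.15 and 10.92 log2 CPM in 0 hr replicates 1 to 4, the order kept throughout, and at 9.44 to 10.99 (median 9.98) at 48 hr. Cdh5 had 0 hr values of 8.52, 7.78, 8.68 and 10.54 and 48 hr values of 7.50 to 10.56 (median 8.21). The groups overlapped for both genes, and of 27 pan-endothelial genes tested none was called (median log2 fold change -0.36). By unadjusted p under 0.05, 1 of the 27 was lower, and DESeq2 and limma-voom called none. The alveolar type 2 transcript Sftpc was present too, at 10.12 to 12.54 log2 CPM at 0 hr and 8.60 to 12.08 at 48 hr. The cells it came from were not tested.

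Of 17058 genes tested, 73 rose and 29 fell at 48 hr (adjusted p under 0.05, edgeR), which is 0.428% and 0.17% of the genes and 0.598% together. The smallest change called was 2.60 on the log2 scale among the genes that rose and -2.17 among those that fell. The median of all genes was 0.006, with quartiles at -0.56 and 0.61. For 57 of the 73 genes that rose and 26 of the 29 that fell, the 0 hr and 48 hr libraries did not overlap. Over all genes tested, 1.48% lay entirely higher and 2.78% entirely lower at 48 hr. All 102 genes had the same sign within library series 1 and within library series 2, although within library series 1, with 2 libraries a group, none was called (183 genes were higher and 153 lower at an unadjusted p under 0.05). These libraries were also part of the fit that chose the genes, so the shared sign was largely set by that choice and is no separate test. Without 48 hr replicates 1 and 2, 47 of the 102 genes were still called (73 genes in all, 0.422% of those tested), and without 0 hr replicate 3, the deepest library, 21 were (21 in all, 0.125%). In DESeq2, which called 2.98% of the genes, 98 of the 102 were called in the same direction, and in limma-voom, which called 0.967%, 92 were. With the suffix a libraries as a library series of their own, 101 genes rose and 43 fell, and 99 of the 102 were called in the same direction.

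**Figure D1:**
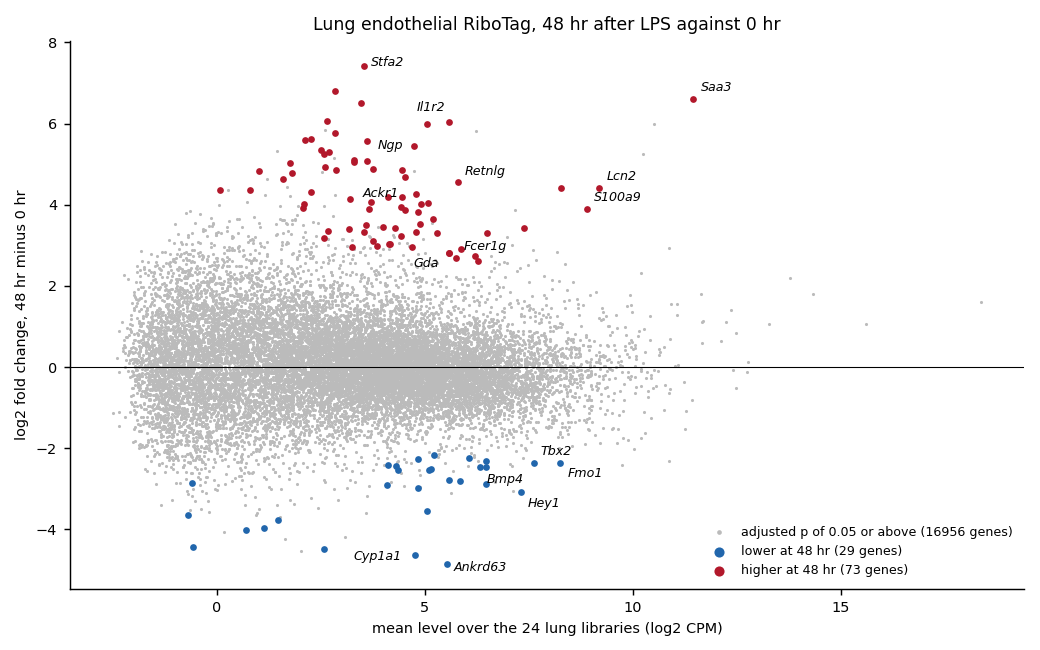
Mean level over the 24 lung libraries (x axis, log2 CPM) against the log2 fold change of 48 hr over 0 hr (y axis) for each of 17058 genes. Red points are the 73 genes that rose and blue points the 29 that fell, and the changes called ranged from -4.84 (Ankrd63) to 7.43 (the fitted value of Stfa2, which had no counts at 0 hr).

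Acute-phase genes were among those that rose. Saa3 (chr7:46711998-46715700, mm10), a serum amyloid A that is made outside the liver, stood at 6.30, 5.14, 3.58 and 1.12 log2 CPM in the 0 hr libraries and at 9.63 to 12.60 (median 11.71) at 48 hr. The lowest 48 hr library thus lay above every 0 hr library, and Saa3 rose by 6.62 ± 1.40 (SE, adjusted p = 0.0182). Lcn2 (chr2:32384633-32388252), lipocalin 2, which withholds iron from bacteria, stood at 5.30, 5.80, 2.56 and 3.56 at 0 hr and at 7.39 to 10.70 (median 10.25) at 48 hr. It rose by 4.42 ± 0.88 (adjusted p = 0.0107), with no overlap, and the 48 hr libraries of library series 2 were the lowest (7.87 and 7.39).

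Of 24 acute-phase genes tested 7 rose and none fell, with a median log2 fold change of 1.82. The median was 2.47 with the genes that had no counts in a group set at their bound. The other members that rose were Saa1, Saa2 and the Serpina3 genes Serpina3n, Serpina3f and Serpina3i, mouse relatives of the antichymotrypsin gene that inhibit serine proteases. Serpina3n stood at 0.40 to 2.39 log2 CPM at 0 hr and at 4.19 to 5.13 at 48 hr, a rise of 3.04 ± 0.66 (adjusted p = 0.0211). Serpina3i rose by 4.02 ± 0.87 (adjusted p = 0.0211), from -1.83 to 1.17 at 0 hr to 2.96 to 5.65 at 48 hr. Saa2 had no counts in the 0 hr libraries and 566 at 48 hr, at least 217-fold higher against a floor of 3 counts over the 0 hr group, but it also had none in 48 hr replicate 1. Saa1 and Saa2 are near-identical copies, and the Serpina3 genes are related members of a gene family. Reads that such genes share can be split or lost in counting, so their separate values are uncertain. Lrg1, which stood at 6.56 to 8.16 at 0 hr, was not called (log2 fold change 0.75 ± 0.62, adjusted p = 0.776). Without 48 hr replicates 1 and 2, 5 of the acute-phase genes were called higher, and without replicate 4 of both groups, where 0.367% of all genes were called, 2 were.

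Start-site regions of genes named in this text are shown because they let the fold changes be read beside the letters upstream of them: 250 bases before to 50 after the start, 5′ to 3′ on the gene's strand, from RefSeq on GRCm38.p6. Capitals mark matches on either strand to any of 3 motifs: the C/EBP motif TTNNGNAA, the κB consensus, and GCGTG, the core bound by the aryl hydrocarbon receptor. Cyp1a1, which fell, is described further on. Overlapping matches run together.
Saa3, chr7:46715627-46715926, minus strand: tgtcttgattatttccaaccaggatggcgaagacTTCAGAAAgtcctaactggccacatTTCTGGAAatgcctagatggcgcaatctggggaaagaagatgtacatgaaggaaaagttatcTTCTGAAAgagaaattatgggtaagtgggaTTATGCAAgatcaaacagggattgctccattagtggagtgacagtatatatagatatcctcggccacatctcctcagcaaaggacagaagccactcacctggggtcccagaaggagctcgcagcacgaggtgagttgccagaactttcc
Lcn2, chr2:32387690-32387989, minus strand: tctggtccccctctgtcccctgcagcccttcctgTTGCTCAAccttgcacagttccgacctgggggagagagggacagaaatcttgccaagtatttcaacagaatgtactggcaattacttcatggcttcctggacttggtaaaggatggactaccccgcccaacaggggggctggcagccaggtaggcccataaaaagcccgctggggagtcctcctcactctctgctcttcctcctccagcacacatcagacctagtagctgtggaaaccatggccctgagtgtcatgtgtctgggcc
Cxcl2, chr5:90903649-90903948, plus strand: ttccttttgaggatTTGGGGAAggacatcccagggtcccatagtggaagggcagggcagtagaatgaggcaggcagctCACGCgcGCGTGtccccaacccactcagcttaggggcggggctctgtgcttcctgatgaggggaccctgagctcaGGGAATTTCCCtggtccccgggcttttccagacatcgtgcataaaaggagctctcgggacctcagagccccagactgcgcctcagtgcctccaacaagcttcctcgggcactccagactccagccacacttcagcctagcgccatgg
Cyp1a1, chr9:57697363-57697662, plus strand: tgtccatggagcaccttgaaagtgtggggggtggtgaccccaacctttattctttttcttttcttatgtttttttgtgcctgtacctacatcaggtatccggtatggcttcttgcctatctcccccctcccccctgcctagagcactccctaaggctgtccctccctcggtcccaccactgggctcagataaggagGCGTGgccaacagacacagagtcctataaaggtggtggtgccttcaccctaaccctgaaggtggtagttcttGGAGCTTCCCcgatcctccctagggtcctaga
The Saa3 region held 4 matches to the C/EBP motif, while the Lcn2 and Cxcl2 regions held 1 each. The κB consensus had 2 overlapping matches in the Cxcl2 region and 1 match in that of Cyp1a1, and its letters were not found in the Saa3 and Lcn2 windows. GCGTG had 2 matches in the Cxcl2 region and 1 in that of Cyp1a1. The C/EBP motif was matched in 40.7% of all 32851 regions in the table and in 36.8% of the tested genes that had a region. Of the 59 genes that rose and had a region, 41 held it, and of the 18 that fell and had a region, 8 did. The κB consensus was matched in 8.46% of all regions, in 12.4% of tested genes, and in 10 of the 59 and 3 of the 18. GCGTG was matched in 32.4% of all regions, in 52.8% of tested genes, and in 14 of the 59 and 8 of the 18. A match is a run of letters and was not tested as a binding site.

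Neutrophil genes rose together. Of 19 tested markers of neutrophils 11 rose and none fell, and the median log2 fold change was 4.24, against 0.006 for all genes. Lcn2, given above with the acute-phase genes, is also among the 11. S100a8 (chr3:90668978-90670035), which with S100a9 forms the neutrophil protein calprotectin, stood at 4.24, 4.05, 5.44 and 2.15 log2 CPM at 0 hr and at 7.17 to 10.38 (median 7.49) at 48 hr. It rose by 4.41 ± 0.87 (adjusted p = 0.0105), and the groups did not overlap. S100a9 rose by 3.90 ± 0.85 (adjusted p = 0.0222), to 7.99 to 10.63 at 48 hr.

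Retnlg (chr16:48872621-48874496), a resistin-like protein of neutrophils, stood at 2.19, 3.32, 1.58 and 1.19 at 0 hr and at 5.15 to 7.69 (median 6.45) at 48 hr. Its rise of 4.56 ± 0.67 had an adjusted p of 0.00027. Ngp, neutrophilic granule protein, rose by 5.45 ± 0.83 (adjusted p = 0.000522) from -0.80 to 1.43 at 0 hr to 4.05 to 6.57 at 48 hr. The granule proteases Mmp8 (4.19 ± 0.89, adjusted p = 0.0183) and Mmp9 (5.09 ± 0.66, adjusted p = 0.000175) rose as well, as did the receptor Csf3r (2.95 ± 0.68, adjusted p = 0.0336), through which G-CSF acts. The groups overlapped for Csf3r, which stood at 0.86 and 1.56 in 48 hr replicates 6 and 7 against -0.78 to 1.72 at 0 hr. The 48 hr libraries of library series 2 were the highest for Mmp8 (5.81 and 5.98, against 2.84 to 3.85 in the others), and S100a8 followed the same order.

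Il1r2 (chr1:40074079-40125231), the decoy receptor for interleukin 1, stood at -3.13, 0.54, -0.25 and -0.70 log2 CPM at 0 hr and at 2.18 to 6.25 (median 6.00) at 48 hr. It rose by 6.04 ± 0.94 (adjusted p = 0.000632), and 48 hr replicate 2 was the lowest of its group. Stefin A genes, inhibitors of cysteine proteases that neutrophils carry, rose too: Stfa1, Stfa2 and Stfa3 had no counts at 0 hr and 552, 759 and 313 at 48 hr, at least 211-fold, 291-fold and 120-fold higher, although Stfa3 also had none in 48 hr replicate 2. These bounds pool the libraries of a group and do not hold for each library. Stfa2 had 249, 292 and 157 counts in 48 hr replicates 1, 2 and 4 but 23, 13 and 25 in replicates 3, 6 and 7. The stefin A genes Stfa2l1, BC100530 and Gm5483 were also called, but these are close copies of one another, and how their reads divide among them is uncertain.

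Of 24 markers of monocytes and macrophages 5 rose and none fell (median log2 fold change 2.02). Msr1, a scavenger receptor, rose by 3.94 ± 0.92 (adjusted p = 0.0361), from -1.83 to 2.52 log2 CPM at 0 hr to 4.22 to 5.85 at 48 hr. Itgam, the integrin CD11b, rose by 3.82 ± 0.74 (adjusted p = 0.00911), and Spi1, the myeloid transcription factor PU.1, by 3.22 ± 0.66 (adjusted p = 0.0144). Fcer1g and Ms4a6c were the others. Of the exon bases of Itgam 68.7% overlap another gene on the same strand, and of those of Ms4a6c 53.1% overlap a gene on the other strand. Lyz2, lysozyme, was not called (0.10 ± 0.66, adjusted p = 0.984), and it stood at 9.81 and 10.64 in 48 hr replicates 1 and 2 but at 4.88 to 7.46 in the other 48 hr libraries. None of the 5 was called without these replicates, whereas 8 of the neutrophil markers were.

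Receptors by which myeloid cells sense bacteria stood outside the marker lists and were named after their values were seen. Fpr1 and Fpr2, receptors for formylated bacterial peptides, rose by 4.93 ± 0.96 (adjusted p = 0.00911) and 3.45 ± 0.79 (adjusted p = 0.0333). Trem1, which amplifies inflammatory signals, rose by 4.07 ± 0.86 (adjusted p = 0.0182) and Clec4e, a receptor for microbial glycolipids, by 5.78 ± 0.98 (adjusted p = 0.00188). Pglyrp1, a peptidoglycan-binding protein, varied little: it stood at 2.02 to 2.78 log2 CPM at 0 hr and at 5.47 to 5.88 at 48 hr, and rose by 3.30 ± 0.55 (adjusted p = 0.0015). Clec4a1, a C-type lectin that the rule for named genes picked, rose by 4.05 ± 0.76 (adjusted p = 0.00576), with the series 2 libraries highest (6.43 and 7.36).

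The summed level of the neutrophil list was 54.6 to 192 CPM over the 0 hr libraries and 1980 to 4000 CPM over the 48 hr libraries, and no neutrophil marker tested was at 0 counts across a whole group. Lcn2, also counted as acute-phase, is a large part of this sum in 48 hr replicates 3, 4, 6 and 7. It stood at 10.05 to 10.70 log2 CPM in these, against 7.17 to 7.68 for S100a8 and 7.99 to 9.06 for S100a9. The summed monocyte and macrophage list ran from 291 to 1160 CPM at 0 hr and from 527 to 4210 CPM at 48 hr, and overlapped between the groups. Whether these transcripts were bound to tagged endothelial ribosomes or came with the pull-down from leukocytes in the tissue was not tested, and in a bulk sample more cells of a type and more RNA per cell cannot be told apart. Among the markers of alveolar macrophages, T and NK cells, B and plasma cells, alveolar type 2 and type 1 cells, fibroblasts, smooth muscle and pericytes, mesothelium, platelets, erythroid cells and cardiomyocytes, 140 genes tested in all, edgeR called none, with 6 higher and 8 lower by unadjusted p under 0.05. DESeq2 called 3 higher and 2 lower of these, and limma-voom 2 higher. Of the airway epithelial markers Tppp3, also known from ciliated cells, fell by 2.23 on the log2 scale (adjusted p = 0.0211).

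**Figure D2:**
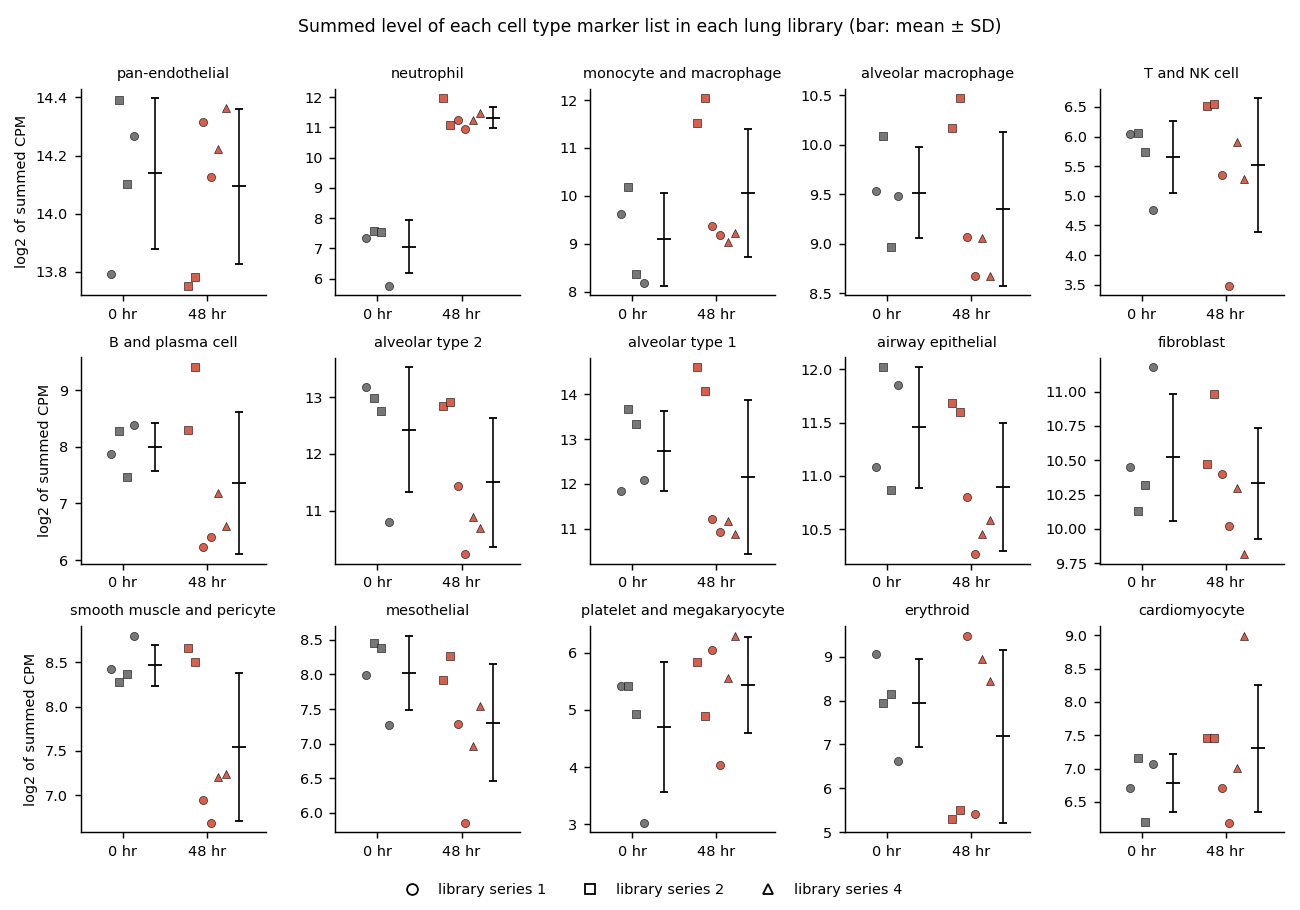
Summed level of the pan-endothelial list and of 14 lists of other cell types in each lung library (y axis, log2 of summed CPM), with 0 hr in grey, 48 hr in red, the symbol giving the library series, and bars the mean ± SD. The neutrophil list, which includes Lcn2, lies higher in all 6 libraries of 48 hr (1980 to 4000 CPM) than in the 4 of 0 hr (54.6 to 192 CPM), and the pan-endothelial list overlaps.

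Genes of LPS sensing and NF-κB signalling held few calls. Of 18 genes of the TLR4 complex and its adaptors, Cd14, the LPS co-receptor, rose by 3.33 ± 0.73 (adjusted p = 0.0235): it stood at 1.15, 1.00, 0.05 and 2.45 log2 CPM at 0 hr and at 4.07 to 5.89 (median 4.83) at 48 hr. It was the member that edgeR called, while DESeq2 called 3 members higher. Tlr4 itself had a log2 fold change of 1.07 ± 0.68 (adjusted p = 0.669). Of 24 NF-κB factors and feedback genes Nfkbiz, which encodes IκBζ, rose by 2.96 ± 0.67 (adjusted p = 0.0307), from 1.84 to 2.84 at 0 hr to 4.10 to 6.01 at 48 hr. The median of that list was 1.13 and 21 of its 24 members had a fold change above 0, but the feedback inhibitors Nfkbia (1.12 ± 0.73, adjusted p = 0.676) and Tnfaip3 (2.09 ± 0.78, adjusted p = 0.309) were not called. DESeq2 called 5 members of this list higher and limma-voom 1, and by unadjusted p under 0.05, 10 were higher and 1 lower.

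Cytokine and chemokine genes also held few calls. Cxcl2, a chemokine that draws neutrophils and whose start region is given above, was the CXC chemokine called of 16 tested, with a log2 fold change of 4.69 ± 1.08 (adjusted p = 0.0333). It stood at 0.61, -3.13, -0.33 and -2.56 log2 CPM at 0 hr and at 0.52 to 5.94 (median 3.83) at 48 hr, so the groups overlapped by 48 hr replicate 2. By unadjusted p under 0.05, 6 of the 16 were higher and 0 lower, and DESeq2 called 3 higher and limma-voom 2. Of 36 cytokines and their receptors edgeR called 1, DESeq2 6 and limma-voom 4, all higher. By unadjusted p under 0.05, 10 of the 36 were higher and 0 lower. Of 16 CC chemokines edgeR and limma-voom called none and DESeq2 called 1 higher (median 1.24, 4 higher by unadjusted p under 0.05). Il10, an anti-inflammatory cytokine, had no counts at 0 hr and 146 at 48 hr, at least 55.9-fold higher, but also none in 48 hr replicate 1. Ebi3, a subunit of interleukins 27 and 35, rose by 3.33 ± 0.73 (adjusted p = 0.0222). Il6 was not called (adjusted p = 0.987), nor were Il1b (2.76 ± 0.72, adjusted p = 0.0711) and Tnf (3.74 ± 1.11, adjusted p = 0.133).

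Acod1, which makes itaconate, rose by 5.05 ± 0.93 (adjusted p = 0.00444), and Arg1, arginase 1, had no counts at 0 hr and 182 at 48 hr, at least 69.7-fold higher, but also none in 48 hr replicate 2. The complement receptor C5ar1 rose by 3.03 ± 0.71 (adjusted p = 0.0355), and was the member called of 25 complement genes. Of 42 interferon-stimulated genes, Irf7, a transcription factor of the interferon response, was called (2.75 ± 0.67, adjusted p = 0.0451), and the list's median was -0.14. Irf7 stood at 1.76 to 4.31 log2 CPM at 0 hr and at 7.28, 7.26 and 7.46 in 48 hr replicates 3, 6 and 7, but at 3.96 to 4.73 in the other 48 hr libraries, which overlapped the 0 hr range. Isg15 (-1.05 ± 0.75, adjusted p = 0.721) and Ifit1 (-0.37 ± 0.73, adjusted p = 0.936) were not called.

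Genes known from vascular cells were among those that rose. Ackr1 (chr1:173331886-173333750), the Duffy receptor by which venular endothelium binds chemokines, stood at -0.29, -0.60, -1.90 and 0.59 log2 CPM at 0 hr and at 1.46 to 5.55 (median 4.74) at 48 hr. It rose by 4.27 ± 0.75 (adjusted p = 0.00303) without overlap, and was the gene called of 12 venous genes, whose median was -0.76. Of its exon bases 25.7% overlap another gene on the same strand. Procr, the endothelial protein C receptor, rose by 2.81 ± 0.65 (adjusted p = 0.0333), from 1.53 to 3.83 at 0 hr to 3.69 to 7.56 at 48 hr, with slight overlap. It was the member called of 26 genes of coagulation and fibrinolysis.

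Gda, guanine deaminase, and the next 3 genes were named after their values were seen. Gda varied little within each group: 2.79 to 3.27 log2 CPM at 0 hr and 5.66 to 6.42 at 48 hr, a rise of 2.82 ± 0.52 (adjusted p = 0.00509). Pla2g7, the platelet-activating factor acetylhydrolase, rose by 3.64 ± 0.62 (adjusted p = 0.00188) and Pla1a, a phosphatidylserine phospholipase, by 5.99 ± 0.98 (adjusted p = 0.00139). For Pla1a the 48 hr libraries ranged from -3.13 to 6.73 and overlapped the 0 hr range. Apod, a lipid-binding lipocalin, rose by 3.53 ± 0.73 (adjusted p = 0.0152). Vcan, the matrix proteoglycan versican, rose by 3.11 ± 0.72 (adjusted p = 0.0335) and Fst, the activin antagonist follistatin, by 3.92 ± 0.93 (adjusted p = 0.0387). Slfn3 (chr11:83191330-83215154), a gene of the Schlafen family, rose by 4.19 ± 0.90 (adjusted p = 0.0211), from -1.46 to 0.61 at 0 hr to 1.16 to 5.20 at 48 hr. Serpina3i, Slfn3 and Clec4a1 belong to families of close copies, and their values carry that uncertainty.

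**Figure D3:**
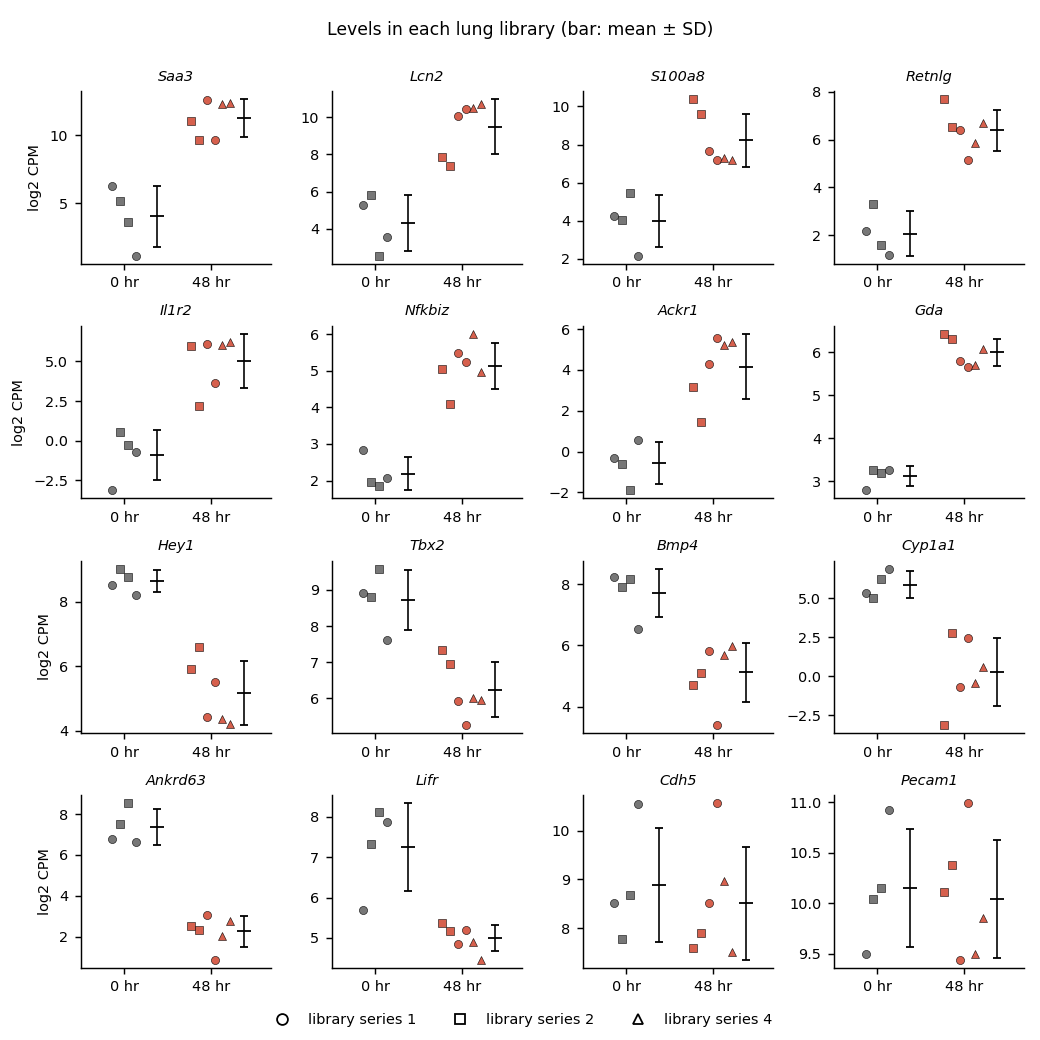
Levels of 16 genes in each lung library (y axis, log2 CPM), with 0 hr in grey, 48 hr in red, the symbol giving the library series, and bars the mean ± SD over 4 and 6 libraries. In the 14 genes called the groups do not overlap, for example Saa3 at 1.12 to 6.30 against 9.63 to 12.60 and Hey1 at 8.23 to 9.04 against 4.19 to 6.61, while Cdh5 and Pecam1 overlap.

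Among the genes that fell were regulators of vascular development. Hey1 (chr3:8663359-8667256), a transcriptional repressor downstream of Notch in arterial endothelium, stood at 8.53, 9.04, 8.79 and 8.23 log2 CPM at 0 hr and at 4.19 to 6.61 (median 4.96) at 48 hr. All 48 hr libraries lay lower, and the log2 fold change was -3.08 ± 0.65 (adjusted p = 0.0182). It was the member called of 19 arterial and Notch genes, whose median was -0.72. The arterial gap junction gene Gja5 was not called (-1.53 ± 0.88, adjusted p = 0.605), and it differed among the 48 hr libraries: 7.44 and 8.17 in replicates 1 and 2, near the 0 hr levels of 6.59 to 8.20, but 2.07 to 5.95 in the others.

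Aerocyte genes held 3 of the genes that fell. Tbx2, a T-box factor, stood at 8.92, 8.80, 9.59 and 7.60 at 0 hr and at 5.26 to 7.34 (median 5.99) at 48 hr, with a log2 fold change of -2.35 ± 0.55 (adjusted p = 0.0359). Fibin (-2.89 ± 0.69, adjusted p = 0.0405) and Rprml (-2.91 ± 0.67, adjusted p = 0.0333) were the others of 15 tested, and the list's median was -0.85. The groups did not overlap for Tbx2 and did for Fibin and Rprml. Car4, carbonic anhydrase 4, lay lower without overlap (6.67 to 7.70 against 8.13 to 9.39) and was not called (-1.72 ± 0.53, adjusted p = 0.152), nor was Apln, the apelin ligand (-3.04 ± 0.79, adjusted p = 0.0706). The summed aerocyte list was split at 48 hr: it stood at 24300 and 16400 CPM in replicates 1 and 2, above every 0 hr library (4310 to 13800 CPM), and at 2430 to 2960 CPM in the other 4, below every 0 hr library. The alveolar type 1 list, which shares Emp2 with it, was split alike. It stood at 25100 and 17400 CPM in replicates 1 and 2 and at 1870 to 2370 CPM in the other 4. None of the aerocyte genes named in this paragraph stood above its 0 hr range in replicates 1 and 2. Which members made up the sums was not tested. Tbx2, Fibin and Rprml were not called without 48 hr replicates 1 and 2.

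The 15 general capillary genes had a median of -1.11 with none called, and 6 were lower by unadjusted p under 0.05. DESeq2 called 1 lower and limma-voom called none. Gpihbp1, which anchors lipoprotein lipase, had a log2 fold change of -0.66 ± 0.70 (adjusted p = 0.839), Aplnr, the apelin receptor, -1.42 ± 0.64 (adjusted p = 0.452) and Kit -1.11 ± 0.57 (adjusted p = 0.546). The summed pan-endothelial list stood at 14200 to 21500 CPM at 0 hr and at 13800 to 21100 CPM at 48 hr. The summed smooth muscle and pericyte list was at 311 to 446 CPM at 0 hr, at 103 to 406 CPM at 48 hr, and lowest in 48 hr replicates 3, 4, 6 and 7. Its part in the values of the capillary genes was not tested.

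Bmp4 (chr14:46383520-46390669), a bone morphogenetic protein, stood at 8.24, 7.90, 8.17 and 6.55 log2 CPM at 0 hr and at 3.40 to 5.98 (median 5.40) at 48 hr, with a log2 fold change of -2.46 ± 0.58 (adjusted p = 0.0387). With Fst it made up the calls among 32 genes of the BMP and TGF-β pathways, whose median was -0.07. Lifr (chr15:7090614-7197489), the receptor for leukemia inhibitory factor, stood at 5.69, 7.33, 8.11 and 7.86 at 0 hr and at 4.46 to 5.37 (median 5.03) at 48 hr. It fell by 2.46 on the log2 scale (adjusted p = 0.0211), while Socs3, the feedback inhibitor of this receptor family, was not called (2.11 ± 0.62, adjusted p = 0.13). Plxna1, a semaphorin receptor chain, fell by 2.32 (adjusted p = 0.0182) and Hs3st1, which sulfates heparan sulfate into its antithrombin-binding form, by 2.79 (adjusted p = 0.0333).

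Ankrd63 (chr2:118699103-118703963), an ankyrin repeat gene, had the lowest fitted fold change of all genes called. It stood at 6.76, 7.49, 8.53 and 6.65 log2 CPM at 0 hr and at 0.88 to 3.05 (median 2.44) at 48 hr, a log2 fold change of -4.84 ± 0.68 (adjusted p = 0.00027). Cyp1a1 (chr9:57687928-57703824), the cytochrome induced through the aryl hydrocarbon receptor, stood at 5.34, 5.04, 6.23 and 6.92 at 0 hr and at -3.13 to 2.78 (median 0.10) at 48 hr. It changed by -4.62 ± 0.83 (adjusted p = 0.00389) with no overlap. Fmo1, a flavin monooxygenase that oxidises drugs, fell by 2.36 (adjusted p = 0.0418) from 8.12 to 9.94 at 0 hr to 5.45 to 7.42 at 48 hr.

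Further genes that fell were Car14, a membrane carbonic anhydrase (-2.97 ± 0.59, adjusted p = 0.0107), Aard (-3.54 ± 0.72, adjusted p = 0.0131), the microfibril protein Mfap2 (-2.79 ± 0.67, adjusted p = 0.0418), Mturn (-2.55 ± 0.54, adjusted p = 0.0175), Cytl1 (-2.51 ± 0.55, adjusted p = 0.0235) and Tppp, a tubulin polymerisation protein (-2.43 ± 0.56, adjusted p = 0.0335). Each of these lay lower in every 48 hr library. For Car14 the 0 hr libraries stood at 5.54 to 6.51 log2 CPM and the 48 hr libraries at 2.01 to 3.83. Cd209a, a lectin of dendritic cells, had 248 counts at 0 hr and none at 48 hr, at least 71.9-fold lower against a floor of 3 counts over the 48 hr group.

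**Figure D4:**
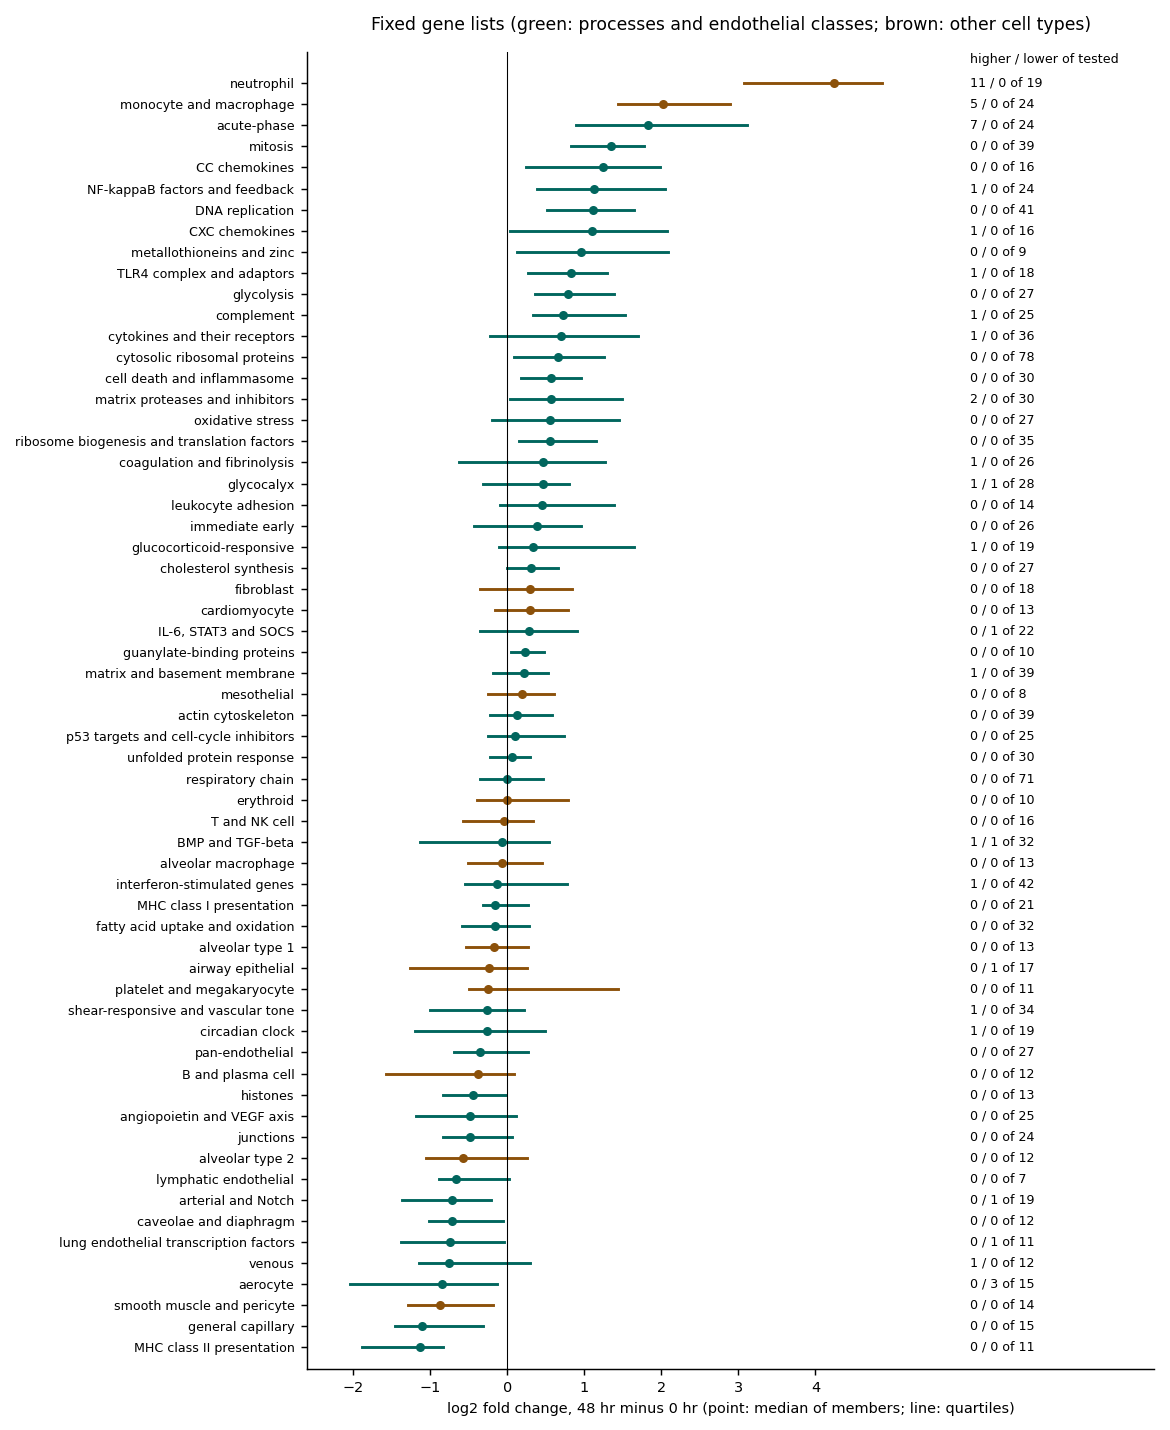
Median (point) and quartiles (line) of the log2 fold change of 48 hr over 0 hr for the tested members of 61 gene lists, with the number that rose and fell of those tested at the right. The neutrophil list has the highest median (4.24) and MHC class II presentation the lowest (-1.14), and all genes tested had a median of 0.006.

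Several groups leaned one way with few or no genes past the threshold. Of 39 genes of mitosis 37 had a fold change above 0 (median 1.35) and none was called, 9 were higher by unadjusted p under 0.05, and DESeq2 called 2 and limma-voom none. Top2a, the topoisomerase of dividing cells, stood at 0.07 to 2.12 log2 CPM at 0 hr and at 4.63, 3.03 and 4.88 in 48 hr replicates 1, 2 and 4, but at 1.23 to 1.44 in the others (2.56 ± 0.81, adjusted p = 0.167). The 41 genes of DNA replication had a median of 1.11 with 12 higher by unadjusted p under 0.05 (edgeR called none, limma-voom 1 and DESeq2 4), and the 78 cytosolic ribosomal protein genes a median of 0.66 with 66 of 78 above 0. Of 27 glycolysis genes 24 had a fold change above 0 (median 0.79). Over all genes tested, 50.3% had a fold change above 0, 5.38% were higher and 4.44% lower by unadjusted p under 0.05.

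In the other direction, 10 of 11 genes of MHC class II presentation had a fold change below 0 (median -1.14, 4 lower by unadjusted p under 0.05), and edgeR called none while DESeq2 and limma-voom each called 1 lower. H2-Ab1, a class II beta chain, stood at 7.41 to 7.94 log2 CPM at 0 hr and at 5.93 to 7.75 at 48 hr (-0.69 ± 0.66, adjusted p = 0.818). The 21 genes of MHC class I presentation had a median of -0.16. Of 14 leukocyte adhesion genes edgeR and limma-voom called none and DESeq2 called 1 higher. Icam1, the ligand of leukocyte integrins, was at 1.52 ± 0.63 (adjusted p = 0.379) and Vcam1 at -0.42 ± 0.57 (adjusted p = 0.885), and 4 members were higher and 1 lower by unadjusted p under 0.05. Without the term for library series 1 member was called higher and 1 lower.

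Other lists held single calls or none. Nfil3, a clock-linked repressor that cytokines induce, was the gene called of 19 circadian clock genes (3.19 ± 0.76, adjusted p = 0.0394), from -1.58 to -0.08 log2 CPM at 0 hr to 2.59 to 3.77 at 48 hr. Hs3st1 and Vcan, both given above, were the calls among 28 glycocalyx genes (median 0.46), and Vcan also the call among 39 genes of the matrix and basement membrane (median 0.22). The basement membrane collagen Col4a1 lay higher without overlap, at 8.22 to 10.09 against 7.05 to 8.11, and was not called (1.67 ± 0.60, adjusted p = 0.273). Of 27 oxidative stress genes edgeR called none, limma-voom 1 and DESeq2 6 higher, and 9 were higher by unadjusted p under 0.05, among them Hmox1, heme oxygenase 1 (1.61 ± 0.54, adjusted p = 0.209). Of 25 genes of the angiopoietin and VEGF axis (median -0.48) edgeR called none, with 4 higher and 5 lower by unadjusted p under 0.05, while DESeq2 called 1 higher and 2 lower and limma-voom 1 lower. Tek, the angiopoietin receptor, was at -1.12 ± 0.71 (adjusted p = 0.663). Thbd, thrombomodulin, lay lower without overlap, at 5.57 to 8.97 against 9.08 to 11.49, and was not called (-2.42 ± 0.76, adjusted p = 0.162). The 71 respiratory chain genes, 32 of fatty acid uptake and oxidation, 30 of the unfolded protein response and 24 of cell junctions held no call in edgeR or limma-voom, with medians from -0.49 to 0.06 and 2 genes higher and 4 lower by unadjusted p under 0.05. DESeq2 called 1 junction gene lower and 1 fatty acid gene higher.

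Some genes with large mean differences were divided among the 48 hr libraries. Mt2 and Mt1, metallothioneins that bind zinc, stood at 12.09 and 12.38 log2 CPM in 48 hr replicate 3, and Mt2 at 12.47 and 11.64 in replicates 6 and 7. In replicates 1, 2 and 4 Mt2 stood at 5.40, 5.08 and 5.89, above the 0 hr range of 2.63 to 4.21, and its log2 fold change of 5.99 ± 1.49 was not called (adjusted p = 0.0549). Of the exon bases of Mt2 73.5% overlap a gene on the other strand. Csf3, the cytokine G-CSF, was at 7.82, 8.33 and 7.43 in replicates 3, 6 and 7 and at -0.55 to 2.29 in the others (5.81 ± 1.47, adjusted p = 0.0593). Selp, P-selectin, was at 5.10 to 6.19 in replicates 3, 4, 6 and 7 and at -1.33 and -3.13 in replicates 1 and 2, below the 0 hr range of -0.29 to 2.10. The labels give no difference among these 48 hr mice. Ddx3y, a gene of the Y chromosome, had no counts in 0 hr replicate 4 and stood at 5.77 to 7.93 in every other library of both groups, so the 0 hr group held an animal without it. The labels give no sex.

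The other time points placed the 48 hr levels within a course. Saa3 had a mean of 4.03 log2 CPM in the 0 hr libraries and means of 12.82, 11.28, 11.00 and 2.55 at 24, 48, 72 and 168 hr. For Hey1 the 0 hr mean of 8.65 was followed by 4.17, 5.16, 6.77 and 8.25 at the same times, and for Cyp1a1 5.88 by 0.46, 0.27, 1.27 and 6.24. The 168 hr means of both genes thus lay near their 0 hr means, which was not tested. Bmp4 stood at 7.71 at 0 hr and at 6.05 at 168 hr. The groups of the course also differed in transcripts of the sex chromosomes, which cannot be told apart from time: Ddx3y had a mean of 6.92 at 48 hr but of 1.01, -1.30 and -3.06 at 24, 72 and 168 hr, and Xist, the RNA of the inactive X chromosome, of -0.07 at 48 hr but of 6.21, 6.72 and 4.88. At 24 hr there were 2 libraries, and the 6 hr group held a library of 284457 counts in all, in which several of these genes had none, so its range was wide.

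**Figure D5:**
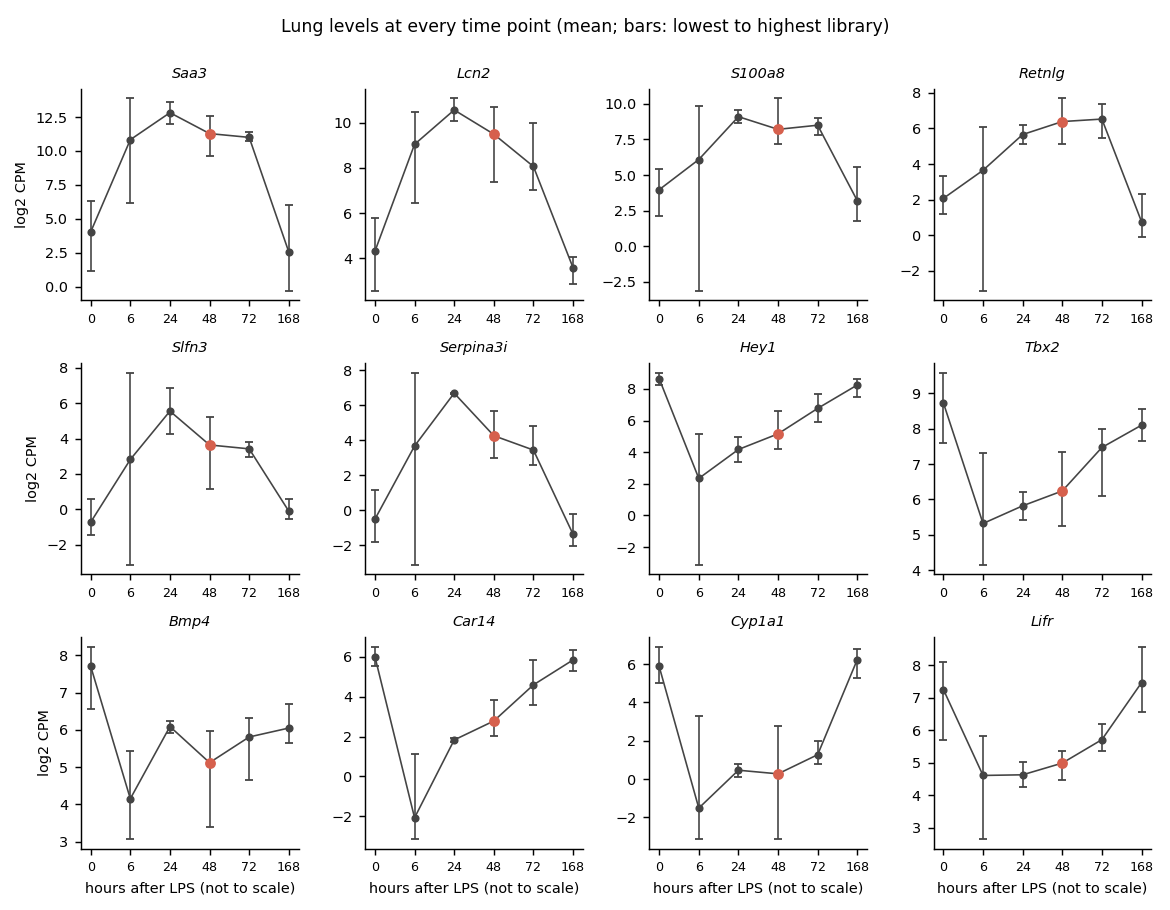
Mean level (points, log2 CPM) of 12 genes at each time after LPS in the lung, with bars from the lowest to the highest library and the 48 hr group in red. Saa3, Lcn2, S100a8 and Retnlg stand higher from 24 to 72 hr than at 0 and 168 hr, and Hey1, Car14 and Cyp1a1 stand lower.

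Against 6 hr, 15 genes were higher and 21 lower at 48 hr (0.211% of genes tested). The interferon-induced chemokine Cxcl10 was lower by 4.96 on the log2 scale (a log2 fold change of -4.96, adjusted p = 0.0233). Its libraries overlapped: they stood at -3.13 to 9.69 log2 CPM at 6 hr (mean 5.12) and at 2.36 to 5.34 at 48 hr (mean 3.31). Ifit2 and Cmpk2, which interferon also induces, changed by -4.30 (adjusted p = 0.0233) and -2.68 (adjusted p = 0.0493). Ly96, which encodes MD-2, was higher by 3.84 (adjusted p = 0.0192) and Hpgd, which inactivates prostaglandins, by 4.46 (adjusted p = 0.0346). Neither was called against 0 hr. Ly96 had means of 4.11, -2.04 and 4.43 log2 CPM at 0, 6 and 48 hr, and Hpgd of 9.02, 1.49 and 8.16. The 6 hr level was thus the low one for both, and it reached -3.13, no counts, in its lowest library. Rspo3, an endothelial activator of Wnt signalling, was higher by 5.79 (adjusted p = 0.0157). Of the 102 genes called against 0 hr, 2 (Stfa2 and BC100530) were also called against 6 hr. These counts rested on the 6 hr libraries: without 6 hr replicate 3, the deepest, they became 3263 and 657, and limma-voom called none (1500 higher and 1336 lower by unadjusted p under 0.05). That replicate held 40128330 counts on genes, and the other 6 hr libraries held 284457 to 2745503.

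Against 72 hr, 3 of 17058 genes were called (0.0176%), by edgeR. These were the Y chromosome genes Ddx3y (8.13, adjusted p = 0.00414) and Eif2s3y (6.77, adjusted p = 0.0449), higher at 48 hr, and Fkbp11, lower (-2.79, adjusted p = 0.0428). By unadjusted p under 0.05, 723 genes were higher and 626 lower, and DESeq2 called 102 and 51. None of the 102 genes called against 0 hr was called against 72 hr. The 72 hr libraries all stood higher for Xist (5.32 to 7.39 log2 CPM) than those of 48 hr (-3.13 to 2.65), so time and sex cannot be told apart here. Both of these comparisons share the 48 hr libraries with the comparison against 0 hr.

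The heart of the same study was used for comparison, with 5 libraries at 0 hr and 6 at 48 hr. The difference between the lung and the heart response at 48 hr was tested with an interaction term over 52 kept lung and heart libraries, and 36 of 19470 genes (0.185%) differed, 20 higher and 16 lower in the lung. With the replicate number as a block most of these calls were lost, and the counts were 2 and 1. Deviations of same-numbered lung and heart libraries correlated at -0.0891 to 0.402 (median 0.0508), above 0.1 in 7 of 23 pairs. These values do not settle whether such libraries share an animal. Of the 12 higher and 12 lower genes with the largest lung changes among those called, at a mean of at least 4 log2 CPM and without overlap, 22 had the same sign in the heart, 14 were called there (1.5% of genes were called in the heart), and 3 differed between the organs. The lung change by which these genes were picked is part of that difference. Their number and sizes are thus partly set by the choice and cannot be read against the share of all genes. Bmp4 fell in the lung and rose in the heart (2.19, adjusted p = 0.0279), a difference of -4.83 ± 0.76 (adjusted p = 0.0012, and 0.000499 with the block). Ankrd63 differed by -4.50 ± 0.96 (adjusted p = 0.035) and Slfn3 by 3.90 ± 0.90 (adjusted p = 0.0445). With the block their adjusted p was 0.0826 and 0.0945, and without the term for library series that of Slfn3 was 0.0564. For Saa3 the heart value was 9.72 and for Lcn2 8.24, and the difference from the lung did not pass the test for either (adjusted p = 0.44 and 0.119). Ackr1 rose by 5.41 in the heart (adjusted p = 1.81e-05), and its difference from the lung was -0.76 ± 1.00 (adjusted p = 0.929). Cyp1a1 fell in both organs, by 4.16 in the heart (adjusted p = 0.0263).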

How the data were processed

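RiboTag libraries of lung endothelium were analysed. Per the labels, the authors aligned reads with STAR 2.4.2 to mm10 and counted them per gene with HTSeq 0.6.1. The deposited values are raw counts, whole and not normalized; annotation release and strandedness are not given in the sources used here. Runs were summed by library, and 52403 of 52550 gene IDs (99.7%) were paired with symbols. The 18 libraries under 3% on genes were left out, all of library series 3. Share on genes is gene counts over gene, no-feature, ambiguous and non-unique counts. Reads that align to several places are not counted, which lowers genes with close copies.

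Counts were fitted with edgeR 4.0.16 (quasi-likelihood F-test, TMM scaling, its own low-count filter, time group plus library series over 24 lung libraries), with Benjamini-Hochberg adjustment at 0.05. Levels and fold changes carry a prior count of 2, and the SE is the ratio of that fold change to the root of F. The lung and heart responses were compared by an interaction term. P-values measure only the spread between these libraries, which may be technical. Leaving out libraries, other scalings and filters, DESeq2 1.42.0 and limma 3.58.1 were alternatives. The code was tested on simulated counts. These had less spread than the lung libraries and no effect of library series, so that test speaks of the code only. Python 3.11.15 and R 4.3.3 were used.

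Named genes were the 12 higher and 12 lower genes with the largest changes among those called, with a mean of at least 4 log2 CPM and no overlap between groups, then the first 3 genes of each of 61 lists (47 of processes or endothelial classes, 14 of other cell types) and up to 3 further called members. Stfa1, Stfa2, Stfa3, BC100530, Gm5483, Fpr1, Fpr2, Trem1, Clec4e, Pglyrp1, Acod1, Ebi3, Il10, Gda, Pla2g7, Pla1a, Apod, Plxna1, Fmo1, Cd209a, Csf3, Gm42418, Ddx3y and the genes named against 6 hr and 72 hr were named after their values were seen. Members, lists and rule were chosen with earlier results of these data known. Gene positions are from GENCODE M21 on the same assembly. Replicate numbers were not read as pairs, within the lung or between lung and heart. Whether same-numbered lung and heart libraries share an animal was not settled.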

Additional observations from a re-analysis of the deposited data

Results flagged for a closer look

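3 of the 24 named genes (12 higher and 12 lower, the largest lung changes among called genes with a mean of at least 4 log2 CPM and no overlap) differed between the lung and the heart response at 48 hr by the interaction term of edgeR. The lung change by which the genes were picked is part of that difference, so its size is partly set by the choice. The difference, lung minus heart, was -4.83 for Bmp4, -4.50 for Ankrd63 and 3.90 for Slfn3 on the log2 scale. The heart values were 2.19 (Bmp4, adjusted p = 0.0279), -0.48 (Ankrd63, adjusted p = 0.964) and 0.43 (Slfn3, adjusted p = 0.994). With the replicate number as a block the adjusted p of the difference was 0.000499 for Bmp4, 0.0826 for Ankrd63 and 0.0945 for Slfn3. For these 24 genes, the 0 hr and the 48 hr values of each gene were tested for a library far from its group, and 0 of these 48 sets of values held one, where chance gives about 1 in 20. The genes were chosen for groups that do not overlap, and the test does not speak of a library as a whole: Gm42418 took 57.6% of the counts in 48 hr replicate 1.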

How the results depend on the processing

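For 48 hr against 0 hr, the counts of genes that rose and fell (73 and 29) kept within 1.5 times under RLE scaling, the robust fit, a minimum of 1000000 counts, a fold change minimum of 1 and a prior count of 0.5. They were 341 and 168 with DESeq2, 196 and 98 without a low-count filter, 112 and 58 without the term for library series, 190 and 190 with a minimum share of 10%, and 301 and 474 within library series 2. Within library series 1 they were 0 and 0 (183 and 153 by unadjusted p under 0.05). Without a minimum share on genes 143 rose, limma-voom called 61 lower, and with the 0 hr and 48 hr libraries alone 15 fell and 49 rose. In alternatives chosen after seeing the data, 14 fell without 48 hr replicates 1 and 2, 46 rose and 17 fell without replicate 4 of both groups. Leaving out each library gave 17 to 83 genes higher and 4 to 39 lower, lowest without 0 hr replicate 3, and at 28 and 12 without 0 hr replicate 2, 43 and 13 without 0 hr replicate 4, 40 and 5 without 48 hr replicate 3, and 13, 18, 16 and 18 genes lower without 48 hr replicates 1, 2, 6 and 7. No gene among the 102 changed sign in any alternative, and of 3014 values 2155 kept the call and 859 lost it. The alternatives reuse the libraries by which the genes were chosen, so a kept sign is no separate test.

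With the replicate number as a block, over the 8 libraries that share a number, 199 rose and 143 fell, and the same libraries without the block gave 23 and 4. Same-numbered libraries deviated together by r = 0.0931, -0.303, 0.304 and 0.427, so the numbers were not read as pairs. For the lung against the heart the block gave 2 higher and 1 lower, and DESeq2 178 and 99.

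Against 6 hr, the counts (15 higher, 21 lower) were 47 and 134 with RLE scaling, 457 and 781 with DESeq2, 0 and 0 with limma-voom, 186 and 433 without a low-count filter, 129 and 155 without library series, 150 and 44 without a minimum share, 0 and 6 at 10%, and 65 and 68 with the libraries named with a suffix a as a series of their own, and 45 were lower with at least 1000000 counts. Leaving out a library gave 3 to 3263 higher and 1 to 657 lower, highest without 6 hr replicate 3 and lowest without 48 hr replicate 2. Against 72 hr (2 higher, 1 lower) they were 1 and 0 with RLE scaling and at 1000000 counts, 102 and 51 with DESeq2, 0 and 2 with limma-voom, 35 and 11 without the filter, 6 and 10 at 10%, and 1 higher without library series or a minimum share, with 0 to 2 and 0 to 3 by leaving out a library. The causes were not tested. Leaving out library series 3 left the libraries as they were. Floors and bounds pool the libraries of a group and cover counting error only.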
